A study of Mus musculus with 2 samples.

Results

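To describe the receptors through which IL-7 and its related cytokines can act on monocytic myeloid-derived suppressor cells (M-MDSCs), the IL-7 receptor and common gamma-chain receptor family was followed through the mRNA sequencing of these cells. The family comprised 10 receptor chains, taken by gene name from the 34745 genes of the deposited expression table, namely Il7r, Il2rg, Il2ra, Il2rb, Il4ra, Il9r, Il13ra1, Il15ra, Il21r and Crlf2. All 10 were listed, and all 10 had the 10 reads needed for the comparison of reads, as did 14162 genes in all. Bone marrow cells of mice were cultured for 7 days with GM-CSF alone (CHBP- M-MDSC) or with GM-CSF and the cyclic helix B peptide CHBP, a derivative of erythropoietin without erythropoietic action (CHBP+ M-MDSC), so that GM-CSF was common to both groups. The strain label reads C57BL/6 for the CHBP- library but C57BL/7 for the CHBP+ library, while the growth protocol names C57/B6 mice for both, so that the strain of the CHBP+ library is uncertain. The labels give no dose of CHBP, no sex and no age. The paper's methods state an age range for the mice and a dose of CHBP in μM, whereas its Results list doses in nM. The cells were separated by flow cytometry before sequencing, M-MDSCs being defined as CD11b+Ly6G-Ly6C high cells, and each condition was sequenced as 1 library. Neither the labels nor the methods say how many mice or dishes went into a library, and there are no replicates.

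The gamma chain, encoded by Il2rg, is shared by the receptors for IL-2, IL-4, IL-7, IL-9, IL-15 and IL-21, and each of these receptors adds a chain of its own that recognises the cytokine. Binding brings together the kinases JAK1, carried by most of the private chains, and JAK3, carried by the gamma chain, which phosphorylate STAT5, STAT6 or STAT3. IL-7R alpha (CD127), the product of Il7r, is best known from lymphocyte precursors, T cells and innate lymphoid cells, where it pairs with the gamma chain to bind IL-7. It also pairs with the product of Crlf2 to bind TSLP. In myeloid cells the family is best known for IL-4 and IL-13, which drive alternative activation of macrophages.

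The starts of 4 of these genes are shown first, because Il7r, Il2ra and Il13ra1 were the 3 chains with at least 1000 reads that were higher in the CHBP+ library, and Il2rg encodes the shared chain, which did not pass the same test. Each sequence runs 5′ to 3′ over 300 bases, from 250 before to 50 after the RefSeq start of the gene, on GRCm38.p6. Il7r (chr15:9529827-9530126) and Il2rg (chrX:101268206-101268505) lie on the minus strand, and Il2ra (chr2:11642542-11642841) and Il13ra1 (chrX:36111858-36112157) on the plus strand. Capitals mark the letters AGGAAG or CGGAAG, the core bound by ETS factors such as PU.1 and GABP, and TTCNNNGAA, the core bound by STAT factors, on either strand. No 2 marked motifs overlap in these windows.
Il7r: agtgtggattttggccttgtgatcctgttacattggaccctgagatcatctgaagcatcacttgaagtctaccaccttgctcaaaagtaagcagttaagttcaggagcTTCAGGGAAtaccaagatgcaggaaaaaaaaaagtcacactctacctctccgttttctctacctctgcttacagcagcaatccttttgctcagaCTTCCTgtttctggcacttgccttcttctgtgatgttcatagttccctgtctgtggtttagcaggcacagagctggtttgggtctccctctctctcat
Il2rg: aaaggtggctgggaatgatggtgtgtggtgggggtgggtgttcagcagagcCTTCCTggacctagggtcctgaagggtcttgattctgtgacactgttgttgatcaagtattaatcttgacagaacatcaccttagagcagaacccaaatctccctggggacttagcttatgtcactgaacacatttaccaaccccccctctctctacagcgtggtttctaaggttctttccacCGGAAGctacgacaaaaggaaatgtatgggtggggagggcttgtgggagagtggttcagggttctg
Il2ra: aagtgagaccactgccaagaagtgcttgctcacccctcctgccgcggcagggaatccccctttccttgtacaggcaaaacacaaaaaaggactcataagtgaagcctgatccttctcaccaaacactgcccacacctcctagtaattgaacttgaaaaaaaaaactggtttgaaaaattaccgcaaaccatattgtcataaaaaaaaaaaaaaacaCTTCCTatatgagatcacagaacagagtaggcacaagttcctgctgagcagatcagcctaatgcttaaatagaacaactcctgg
Il13ra1: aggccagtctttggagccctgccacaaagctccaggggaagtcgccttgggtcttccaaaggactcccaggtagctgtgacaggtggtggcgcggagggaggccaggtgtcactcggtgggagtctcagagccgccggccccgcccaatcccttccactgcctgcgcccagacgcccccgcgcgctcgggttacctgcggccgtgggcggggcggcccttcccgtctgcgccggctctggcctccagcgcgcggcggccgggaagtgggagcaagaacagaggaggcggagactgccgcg

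The Il7r window held an ETS core from -48 to -43 on the opposite strand and a STAT core from -142 to -134, counted from the start of transcription. Il2rg held ETS cores from -16 to -11 and, on the opposite strand, from -199 to -194. Il2ra had an ETS core from -34 to -29 on the opposite strand, and none of these letters was found in the Il13ra1 window. RefSeq starts were found for 9 of the 10 chains, all but Il2rb. An ETS core was present for 6 of these 9 chains (Il7r, Il2rg, Il2ra, Il4ra, Il15ra and Crlf2), against 46.5% of 32851 promoter windows of the same length. The first is a count of genes and the second a share of windows. These chains have 10 windows, 2 of them for Il15ra, whose second window held no ETS core. The core bound by GATA factors, searched on either strand as AGATA or TGATA, each followed by A or G, stood in the windows of Il9r and Il21r and in 29.8% of all windows, but not in that of Il7r. The STAT core stood in the Il7r window alone and in 8.30% of all windows. These matches describe the letters only. The windows of Il2rg and Il13ra1 also differed in base composition, with 50.3% and 71% G and C, against 45.7% for Il7r and 42.7% for Il2ra.

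The libraries held 16484504 (CHBP-) and 16280466 (CHBP+) counted reads, so that a gene without reads could still reach 0.182 and 0.184 CPM (counts scaled to library size), which is what 3 reads are worth. Over the 6037 genes with at least 1000 reads in both libraries together, the log2 fold of CHBP+ over CHBP- M-MDSC moved with gene length, with Spearman's rho of 0.553 across genes, which are not replicates. Its median was -0.30 in the shortest 10% and 0.34 in the longest 10% of these genes. Of the genes that define the sort, Itgam (CD11b) is listed under 2 identifiers with overlapping spans, the more abundant with 157 FPKM in CHBP- and 232 FPKM in CHBP+ M-MDSC. Ly6c2 had 56.9 and 34.0 FPKM and Ly6g 2.19 and 2.12 FPKM, where FPKM is the count scaled to gene length and library size. In RNA of a sorted population, fewer cells of a type and less RNA per cell cannot be told apart.

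Reads of each gene were compared between the libraries with a two-sided exact binomial test against the library totals, adjusted by Benjamini-Hochberg over all genes tested. This read test and the 95% Clopper-Pearson intervals cover counting error only, and they compare 2 libraries and not the conditions. By it, 4 of the 10 chains (Il7r, Il2ra, Il13ra1 and Il9r) were higher in CHBP+ M-MDSC, where 21.9% of all genes were, and 0 were lower, where 22.2% of all genes were. At an unadjusted p of at most 0.05, Crlf2 joined the higher chains and the number of lower chains was still 0, against 24.4% of all genes higher and 25.3% lower. With at least 1.5-fold added to the test, only Il9r was counted among the chains, against 6.4% of all genes higher and 4.29% lower. The median log2 fold of the 10 chains was 0.11, beside -0.02 over all genes tested, with 5 chains above and 5 below 0. Summed over the family, these genes reached 1112 CPM without and 1163 CPM with CHBP.

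The level of the chains spanned from 103 FPKM for Il2rg to 0.140 FPKM for Il9r in CHBP- M-MDSC, and their order was the same in both libraries. Il2rg stood highest, followed by Il7r, Il13ra1, Il4ra, Il21r, Il2ra and Crlf2, all above 1 FPKM in both libraries. Il15ra, Il2rb and Il9r stayed under 1 FPKM in both. Neighbours in this order were separated by their exact Poisson 95% intervals in each library, except Il15ra and Il2rb, whose intervals overlapped in both. Among genes with reads, 97.5% had a lower FPKM than Il2rg and 93.7% a lower FPKM than Il7r in CHBP- M-MDSC, and 97.8% and 95.3% in CHBP+ M-MDSC.

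**Figure D1:**
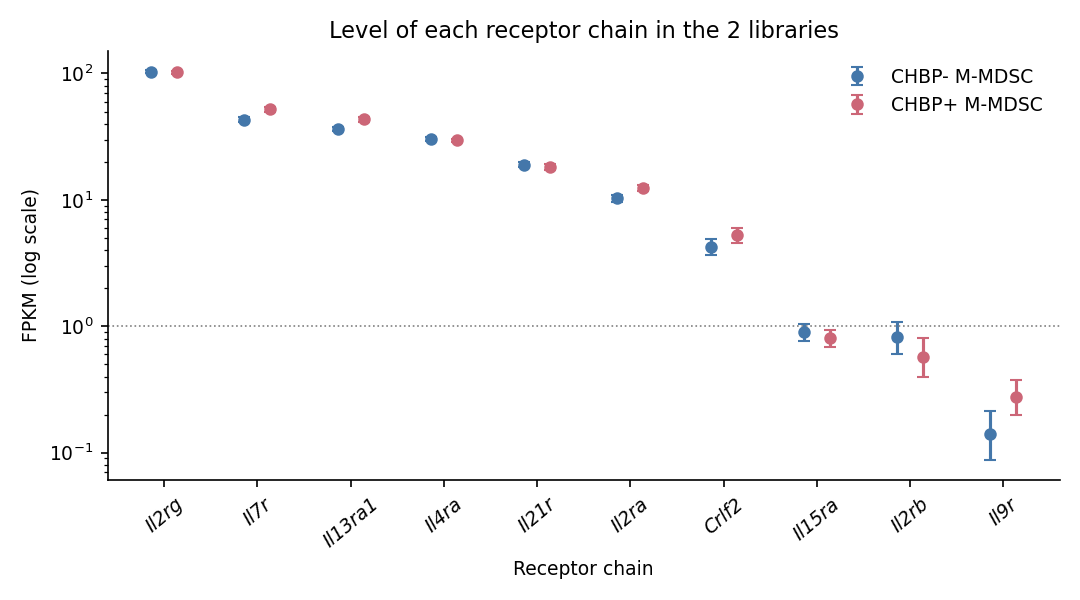
Level of each receptor chain, in FPKM on a log axis, in the CHBP- (blue) and CHBP+ (red) library, ordered by the CHBP- level. Points are the deposited FPKM of 1 library each, bars are exact Poisson 95% intervals for counting error, and the dotted line marks 1 FPKM. The 3 chains on the right, Il15ra, Il2rb and Il9r, lie below that line in both libraries.

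This order depended on the length used for each gene. The deposited FPKM imply a length of 12214 bases for Il15ra and 3633 bases for Il2rg, whereas the longest GENCODE M1 transcripts of these genes have 1618 and 1670 bases. Per kilobase of that transcript, Il15ra reached 6.75 and 6.07 CPM in CHBP- and CHBP+ M-MDSC in place of 0.894 and 0.805 FPKM, and Il2rg 225 and 222. On this scale Il4ra, at 54.6 and 53.2, stood above Il7r, whose 2 lengths were both 3208 bases. The order of the other chains at the low end, with Il15ra above Il2rb and Il9r last, was the same on both scales.

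Among the chains that bind IL-7 and TSLP, Il7r (ENSMUSG00000003882, chr15:9506161-9529876) was covered by 2281 reads without and 2713 reads with CHBP, which is 43.1 and 51.9 FPKM. The CHBP+ library was the higher, by 1.20-fold in CPM with an interval of 1.14 to 1.27 (exact binomial test, adjusted p = 4.31e-10). This is under 1.5-fold. The common gamma chain Il2rg (ENSMUSG00000031304, chrX:101264378-101268255) had 6192 and 6024 reads, or 103 and 102 FPKM. Its fold was 0.985 with an interval of 0.951 to 1.02 (exact binomial test, adjusted p = 0.546). Crlf2 (ENSMUSG00000033467, chr5:109554709-109558993), the chain that joins IL-7R alpha in the TSLP receptor, had 183 and 223 reads, or 4.25 and 5.24 FPKM. Its 1.23-fold value, with an interval of 1.01 to 1.51, missed the threshold once adjusted over all genes (exact binomial test, p = 0.0370, adjusted p = 0.0778).

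Within a library, the ratio of 2 chains does not depend on how the libraries are scaled. The FPKM of Il7r was 0.417 of that of Il2rg in CHBP- and 0.510 in CHBP+ M-MDSC, a change of 1.22-fold with an exact 95% interval of 1.14 to 1.31 for counting error. Whether this change was seen depended on the trend of fold that was removed (both trends are described further on). With the gene length trend removed, Il7r stood 1.30-fold and Il2rg 1.05-fold above it. With the trend of transcript length and GC content removed the change was not seen, as Il7r stood 1.13-fold and Il2rg 1.11-fold above that trend. Il2rg exceeded Il7r in both libraries, by 2.40 and 1.96 times in FPKM and by 5.21 and 4.27 times per kilobase of the longest transcript. The FPKM of Il7r was 10.2 and 9.91 times that of Crlf2, or 5.45 and 5.32 times per kilobase of transcript, and this ratio changed by 0.976-fold with an interval of 0.792 to 1.20. With the gene length trend removed Crlf2 stood 1.37-fold above it, against 1.30-fold for Il7r. With the trend of transcript length and GC content removed Crlf2 stood 1.68-fold above it, against 1.13-fold for Il7r. The ratio of Il7r to Il13ra1 changed by 1.02-fold with an interval of 0.937 to 1.10, and that of Il7r to Il2ra by 0.994-fold with an interval of 0.898 to 1.10. The intervals of the last 2 ratios included 1, so that a difference between the folds of these 3 higher chains was not detectable at this depth.

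Of the chains for IL-4 and IL-13, Il4ra (ENSMUSG00000030748, chr7:125552120-125579474), the chain that recognises IL-4, was covered by 4583 reads without and 4408 with CHBP, which is 30.4 and 29.6 FPKM. Its fold of 0.974 had an interval of 0.934 to 1.02 (exact binomial test, adjusted p = 0.327). Il13ra1 (ENSMUSG00000017057, chrX:36112110-36171259), which binds IL-13 and forms the type II receptor with the product of Il4ra, had 2234 and 2617 reads, or 36.5 and 43.3 FPKM. It was higher in CHBP+ M-MDSC by 1.19-fold with an interval of 1.12 to 1.26 (exact binomial test, adjusted p = 1.97e-08). Il4ra can pair either with the gamma chain (type I) or with Il13ra1 (type II). The ratio of Il4ra to Il2rg was 0.294 and 0.290, and it changed by 0.989-fold with an interval of 0.936 to 1.04. The 2 chains moved apart when a trend was removed. Il4ra stood at 0.886 and Il2rg at 1.05 of the gene length trend, and at 0.873 and 1.11 of the trend of transcript length and GC content. The ratio of Il13ra1 to Il4ra was 1.20 and 1.46, a change of 1.22-fold with an interval of 1.13 to 1.31. Per kilobase of the longest transcript it was 0.669 and 0.814, so that which of these chains stood higher depended on the length used.

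The chains for IL-2 and IL-15 were unequal in level. Il2ra (ENSMUSG00000026770, chr2:11642807-11693193), the alpha chain CD25 that raises the affinity for IL-2, was covered by 1007 reads without and 1205 with CHBP, which is 10.3 and 12.5 FPKM. It was higher in CHBP+ M-MDSC by 1.21-fold with an interval of 1.11 to 1.32 (exact binomial test, adjusted p = 3.25e-05). The listed gene Gm37881 overlaps it with 5 and 6 reads. Il2rb (ENSMUSG00000068227, chr15:78480553-78495066), the beta chain that carries the signal of both cytokines, had only 49 and 34 reads, or 0.816 and 0.573 FPKM. The fold of 0.703 had an interval of 0.440 to 1.11 (exact binomial test, adjusted p = 0.214), so that a change of Il2rb was not detectable at this depth. Il2ra thus exceeded Il2rb by 12.6 times in CHBP- and 21.8 times in CHBP+ M-MDSC, and the ratio changed by 1.72-fold with a wide interval of 1.08 to 2.78. Il15ra (ENSMUSG00000023206, chr2:11705290-11734317), which holds IL-15 and presents it to other cells, had 180 and 160 reads, with a fold of 0.900 and an interval of 0.723 to 1.12 (exact binomial test, adjusted p = 0.491).

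For IL-21 and IL-9, Il21r (ENSMUSG00000030745, chr7:125603429-125633570) was covered by 1594 reads without and 1507 with CHBP, which is 19.0 and 18.2 FPKM, and its fold of 0.957 had an interval of 0.892 to 1.03 (exact binomial test, adjusted p = 0.350). Il9r (ENSMUSG00000020279, chr11:32187541-32200279), known from mast cells and T cells, had 21 and 41 reads, or 0.140 and 0.277 FPKM. It was higher in CHBP+ M-MDSC by 1.98-fold with an interval of 1.14 to 3.52 (exact binomial test, adjusted p = 0.0268). This was the largest fold of the family and rested on the fewest reads. On log2(FPKM + 1) its log2 fold was 0.16, in place of 0.98.

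**Figure D2:**
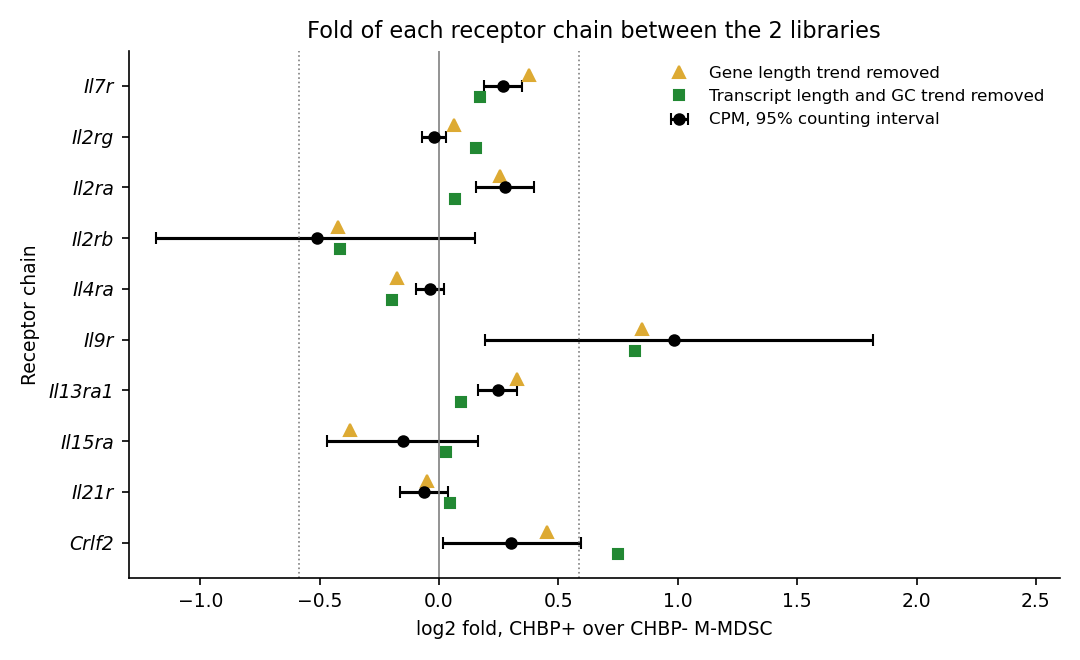
Log2 fold of CHBP+ over CHBP- M-MDSC for each receptor chain. Black points are folds of CPM with 95% Clopper-Pearson intervals for counting error, yellow triangles are the values with the trend with gene length removed, green squares those after removal of the transcript trend (length and GC content), and dotted lines mark 1.5-fold. Il7r lies above 0 on all 3 measures, whereas Il2rg, Il15ra and Il21r change sign between them.

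Members of the family also lie beside each other in the genome. Il2ra and Il15ra are 12096 bases apart on chromosome 2, and Il4ra and Il21r are 23954 bases apart on chromosome 7, with 0 listed genes between either pair. The log2 folds of the first pair were 0.28 and -0.15, and those of the second were -0.04 and -0.06. Il2rg and Il13ra1 both lie on the X chromosome, with log2 folds of -0.02 and 0.25.

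Because the folds of all genes moved with gene length, the chains were also set against genes of their own length. The deposited values imply 3208 bases for Il7r, where the trend over all genes lay at -0.11, so that Il7r stood 1.30-fold above it (exact binomial test against the trend, adjusted p = 4.81e-19). With the length and GC content of the transcript as the trend, it stood 1.13-fold above (exact binomial test, adjusted p = 0.000208). Of the 6037 genes with at least 1000 reads, 77.8% had a lower log2 fold than Il7r, and 91.8% and 86.5% did after these trends were removed. The other higher chains passed under fewer of these settings. With the transcript trend removed, Il2ra stood 1.05-fold above it (adjusted p = 0.494 in the exact binomial test) and Il13ra1 1.07-fold (adjusted p = 0.0829 in the exact binomial test), although both passed with the gene length trend removed, at 1.19-fold and 1.25-fold. Il9r passed with neither, with adjusted p values of 0.0751 and 0.123 in the exact binomial test.

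Removing the trends also moved chains that had not passed the test. The test takes a trend as exact, whereas genes with at least 1000 reads scattered about the gene length trend with an SD of 0.33 in log2. Of all genes, 36.8% passed against that trend. Il4ra, with a fold of 0.974 in CPM, stood at 0.886 of the gene length trend and 0.873 of the transcript trend (exact binomial test, adjusted p = 8.29e-08 and 2.24e-09). Of genes with at least 1000 reads, 24.3% and 13.4% lay lower than Il4ra against these trends, and 61.7% and 84.8% lower than Il2rg. Crlf2, the shortest gene of the family with 2613 bases, stood 1.37-fold and 1.68-fold above them (exact binomial test, adjusted p = 0.00621 and 2.12e-06). Il2rg stood 1.05-fold and 1.11-fold above them (exact binomial test, adjusted p = 0.0406 and 3.08e-08), so that its sign turned. The chains counted as higher were thus Il7r, Il2ra, Il13ra1, Il2rg and Crlf2 with the gene length trend removed, where 17.9% of all genes were higher and 18.9% lower. They were Il7r, Il2rg and Crlf2 with the transcript trend removed, where 12.5% of all genes were higher and 14% lower. Il4ra was the 1 chain counted as lower, that is below the trend, in both.

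**Figure D3:**
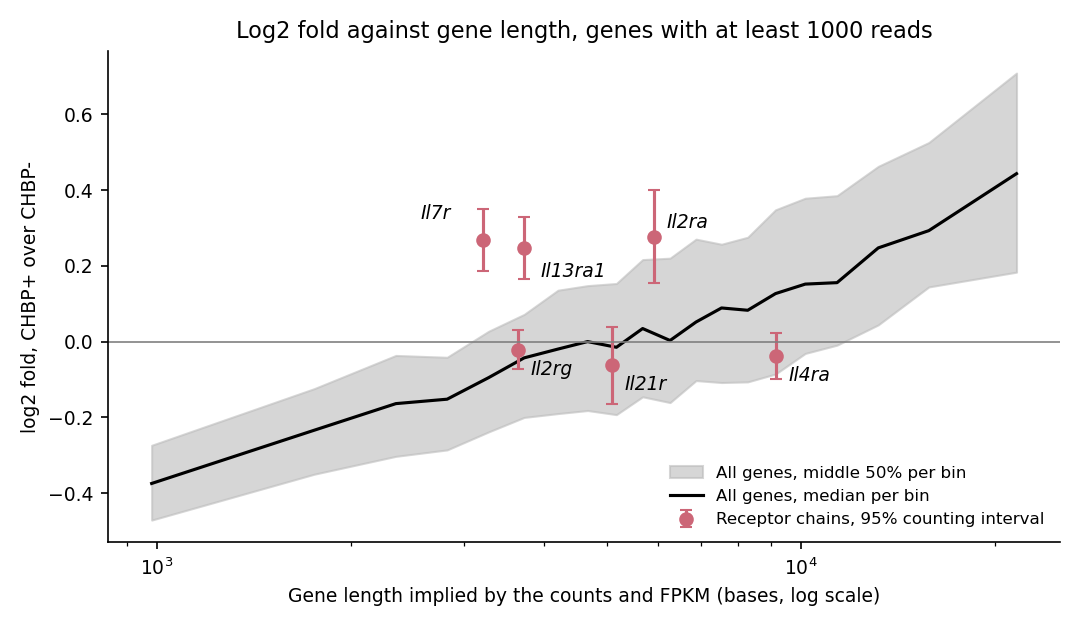
Log2 fold of CHBP+ over CHBP- M-MDSC against gene length in bases on a log axis, for genes with at least 1000 reads. The black line and grey band are the median and the middle 50% of all such genes in 20 bins of length, and red points are the 6 receptor chains at this depth with 95% counting intervals. Il7r, Il13ra1 and Il2ra lie above the band, Il2rg and Il21r lie within it, and Il4ra lies near its lower edge.

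The ligands of the family were scarcely present. Of 9 genes for ligands and the decoy receptor Il13ra2, Il2, Il9, Il21 and Il13ra2 had 0 reads in both libraries, which allows up to 0.182 and 0.184 CPM. Il7 had 4 reads without and 0 with CHBP, too few for a fold. The other 4 were tested and none passed the exact binomial test in either direction, and the 95% intervals of all 4 folds included 1. Il4 had 61 and 46 reads (2.61 and 1.99 FPKM), Il15 had 51 and 46 reads (1.62 and 1.48 FPKM), Tslp had 15 and 10 reads and Il13 had 8 and 3 reads.

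Of the 25 genes of the signalling apparatus beneath these receptors, 14 were higher and 6 lower in CHBP+ M-MDSC by the read test, beside 21.9% and 22.2% of all genes. The median log2 fold was 0.10, beside -0.02 over all genes. With the gene length trend removed, the numbers were 9 and 8, beside 17.9% and 18.9% of all genes, and the median was -0.07. Jak1, the kinase of most private chains, had 39.4 and 50.8 FPKM and was 1.29-fold higher (exact binomial test, adjusted p = 6.87e-48). Jak3, the kinase of the gamma chain, was low, with 2.53 and 2.26 FPKM, a fold of 0.892 and an interval of 0.758 to 1.05. Jak2, which serves Crlf2 and the receptors for GM-CSF and erythropoietin, had 84.1 and 98.4 FPKM and was 1.17-fold higher (exact binomial test, adjusted p = 8.64e-21). With the gene length trend removed, the log2 fold of Jak1 went from 0.37 to 0.23, and that of Jak2 from 0.23 to 0.24.

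Among the STAT factors, Stat5b (15.8 and 18.2 FPKM) and Stat6 (48.5 and 51.8 FPKM) were 1.15-fold and 1.07-fold higher in CHBP+ M-MDSC by the exact binomial test (adjusted p = 0.000389 and 0.00384). Stat5a had 6.02 and 5.74 FPKM with a fold of 0.953 and an interval of 0.871 to 1.04, and its span overlaps that of Stat3, as that of Stat6 does Nab2, with 781 and 731 reads. Irs2, the adaptor of the IL-4 receptor, was 1.68-fold higher with 81 and 134 reads (exact binomial test, adjusted p = 0.000791). The phosphatase Ptpn6, which dampens JAK signals, had 69.6 and 61.3 FPKM, and the adaptor Grb2 had 52.1 and 48.4 FPKM, and both were lower, at 0.881-fold and 0.930-fold (exact binomial test, adjusted p = 3.81e-10 and 0.00401).

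Of 26 target genes of STAT5 and STAT6, 5 were higher and 6 lower in CHBP+ M-MDSC, beside 21.9% higher and 22.2% lower over all genes. Their median log2 fold was -0.03. With the gene length trend removed, 8 were higher and 5 lower, beside 17.9% and 18.9% of all genes, and the median was 0.10. Arg1, the arginase of suppressor cells, had 399.6 and 401 FPKM and a fold of 1.00 with an interval of 0.976 to 1.03, and Chil3, a chitinase-like protein, had 530.4 and 546 FPKM and a fold of 1.03 (exact binomial test, adjusted p = 0.0152). The lectin Clec7a had 219 FPKM in both, and its fold was 1.00 with an interval of 0.977 to 1.03. All 3 stood above the gene length trend, by a log2 of 0.24 for Arg1, 0.23 for Chil3 and 0.10 for Clec7a (exact binomial test against the trend, adjusted p = 1.59e-30, 4.01e-50 and 1.06e-06). The kinase Pim1, a classical STAT5 target, was lower by a fold of 0.899 (exact binomial test, adjusted p = 1.50e-12), but its log2 fold with the gene length trend removed was -0.01. Bcl2l1, which protects cells from apoptosis, had 893 and 358 reads, a fold of 0.406 with an interval of 0.358 to 0.459 (exact binomial test, adjusted p = 3.64e-50).

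Of 12 transcription factors known from the control of Il7r in lymphocytes, 7 were higher and 3 lower in CHBP+ M-MDSC, with a median log2 fold of 0.25, beside 21.9% higher and 22.2% lower over all genes. With the gene length trend removed, 4 were higher and 4 lower, beside 17.9% and 18.9% of all genes, and the median was 0.09. Gata3 had 14 and 19 reads, and its fold of 1.37 had an interval of 0.653 to 2.96 (exact binomial test, adjusted p = 0.523), so that no difference was detectable at this depth. Of the factors that bind the ETS core, Spi1 (PU.1) was the most abundant with 85.7 and 72.0 FPKM and was lower by a fold of 0.841 (exact binomial test, adjusted p = 1.35e-14). Gabpa had 12.2 and 14.6 FPKM and was 1.20-fold higher (exact binomial test, adjusted p = 2.50e-06), but it overlaps Atp5j, with 1441 and 1020 reads. Past 1.5-fold in the read test were Ets1, Gfi1, Ikzf1 and Bach2. Ets1 had 679 and 231 reads, a fold of 0.344 with an interval of 0.295 to 0.401. The repressor Gfi1 had 659 and 336 reads, a fold of 0.516, Ikzf1 had 773 and 1179 reads, a fold of 1.54, and Bach2 had 13 and 87 reads, a fold of 6.78 with an interval of 3.76 to 13.2. Notch1 had 12.2 and 16.9 FPKM and was 1.39-fold higher (exact binomial test, adjusted p = 4.31e-44), and Runx3 had 11.4 and 12.0 FPKM with a fold of 1.05 and an interval of 0.974 to 1.14. With the gene length trend removed, the log2 fold of Notch1 went from 0.47 to 0.17. That of Ikzf1 went from 0.63 to 0.44, under 1.5-fold. Bach2, Ets1 and Gfi1 stayed past 1.5-fold, with log2 values of 2.38, -1.75 and -0.98.

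Of 17 receptors of other cytokines, 6 were higher and 6 lower, beside 21.9% and 22.2% of all genes, and the median log2 fold was -0.05. With the gene length trend removed, 5 were higher and 3 lower, beside 17.9% and 18.9% of all genes, and the median was 0.0049. The chains for GM-CSF, to which both cultures were exposed, stood far above Il7r. The signalling chain Csf2rb had 715 and 903 FPKM and was 1.26-fold higher, and Csf2rb2, its paralog, had 264 and 324 FPKM and was 1.23-fold higher (exact binomial test, adjusted p = 1.12e-99 for Csf2rb2). Reads of these near-identical paralogs may have been divided between them in the counting. Csf2ra, with 101 and 87.4 FPKM, was lower by a fold of 0.868 (exact binomial test, adjusted p = 6.06e-07), and its log2 fold was 0.00 with the gene length trend removed. Csf1r, the receptor for M-CSF, had 113 and 126 FPKM and was 1.11-fold higher, and it overlaps Hmgxb3, with 756 and 835 reads. Il6st, the shared chain of the IL-6 family, had 1106 and 1762 reads and a fold of 1.61, and Il10ra, the receptor of IL-10, had 2140 and 1292 reads and a fold of 0.611. With the gene length trend removed, the log2 fold of Il6st went from 0.69 to 0.35, under 1.5-fold, and that of Il10ra from -0.71 to -0.82.

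**Figure D4:**
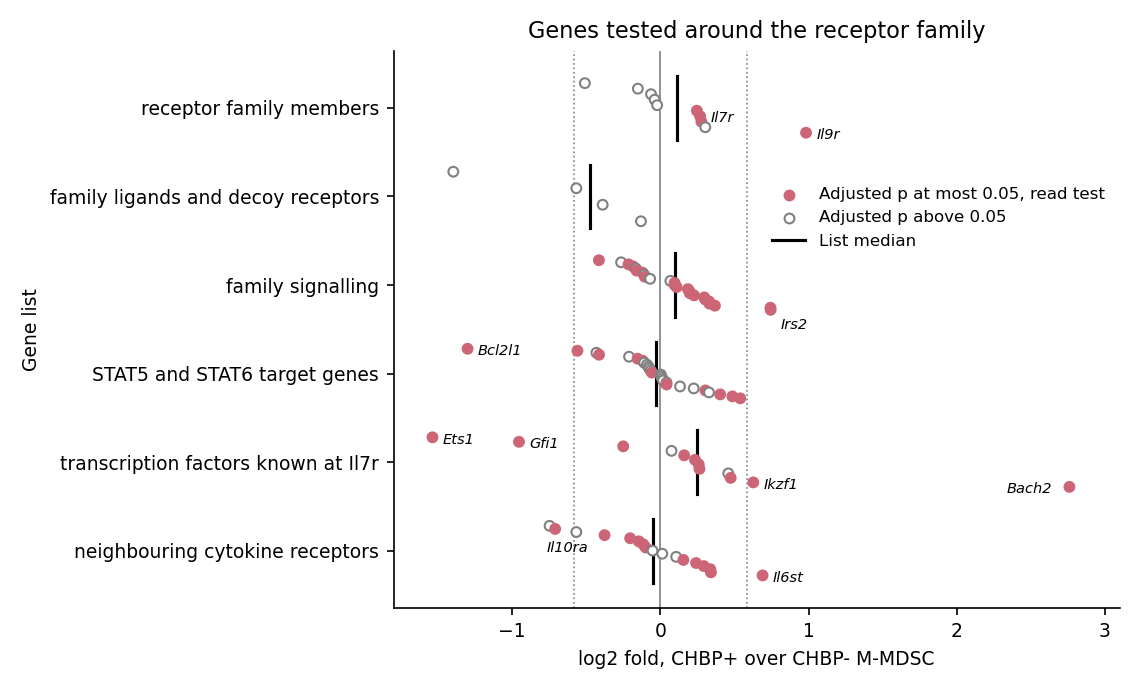
Log2 fold of CHBP+ over CHBP- M-MDSC for the genes tested in the receptor family and in 5 lists of related genes. Each point is a gene, filled where its reads passed the exact binomial test at an adjusted p up to 0.05, the black bar is the median of the list, and dotted lines mark 1.5-fold. Il9r is the filled point of the receptor family past 1.5-fold, and Bach2 and Ets1 are the farthest points to the right and left.

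Marker genes of other cells that carry these receptors were looked up in the same libraries. Their counts of higher and lower genes stand beside 21.9% higher and 22.2% lower over all genes tested. The sort for CD11b and Ly6C would remove most lymphoid cells, and the methods describe the sorted cells as largely pure by flow cytometry. Of 11 T cell genes, 1 was higher and 1 lower, 3 had at least 1 FPKM in both libraries, and their summed level was 39.9 and 38.9 CPM in CHBP- and CHBP+ M-MDSC. The highest were Tcf7 (2.59 and 1.72 FPKM) and Cd28 (1.63 and 2.24 FPKM), and Cd3e, Cd3d and Cd3g had at most 17 reads in either library. NK cell genes summed to 2.73 and 3.75 CPM. Of 7 such genes, Ncr1 and Klra8 had 0 reads in both libraries, the 4 with enough reads passed in neither direction, and the highest were Gzma (0.276 and 0.420 FPKM) and Klrb1c (0.224 and 0.391 FPKM). Group 2 innate lymphoid cell genes summed to 128 and 122 CPM, with 2 of 7 tested higher and 1 lower, led by Thy1 (58.8 and 48.6 FPKM) and Il1rl1 (1.51 and 1.89 FPKM), with Areg and Il5 at 0 reads in both. Most of that sum came from Thy1, with 1683 and 1374 reads. Rora had 91 and 225 reads (0.371 and 0.929 FPKM), a fold of 2.50 with an interval of 1.95 to 3.23 (exact binomial test, adjusted p = 1.22e-13). With the gene length trend removed, its log2 fold went from 1.32 to 1.04. Gata3, Il13, Klrg1, Icos and Il17rb had at most 20 reads in either library.

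Mast cell and basophil genes were present, with 8 of 12 at 1 FPKM or more in both libraries, and summed to 839 and 768 CPM. The highest were Cpa3 (141 and 130 FPKM) and Prss34 (83.4 and 57.2 FPKM). In this list 2 genes were higher and 5 lower in CHBP+ M-MDSC, beside 21.9% and 22.2% of all genes. Past 1.5-fold were Ms4a2, higher with 182 and 446 reads (a fold of 2.48), and Mcpt8, lower with 650 and 416 reads (a fold of 0.648). With the gene length trend removed, their log2 folds were 1.35 and -0.32. Cma1, Mcpt4 and Tpsab1 had at most 3 reads in either library, and Tpsb2 had 16 and 15. Mature dendritic cell genes, a list that shares Ccl17, Ccl22 and Socs2 with those of STAT5 and STAT6 targets or signalling, summed to 862 and 888 CPM, with 1 of 14 higher and 4 lower. The highest of them were Ccl22 (63.3 and 59.4 FPKM) and Samsn1 (34.3 and 46.4 FPKM). The part of any of these cells in the levels or the folds of the receptor chains was not tested.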

How the data were processed

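mRNA of CHBP- M-MDSC and CHBP+ M-MDSC was measured in 1 library each, grouped by the treatment in the labels. The authors deposited raw read counts per gene and FPKM. Per the labels, Seqtk was used to trim linkers and poor 3′ ends and to discard reads that were short or ribosomal. The paper names single-end reads, TopHat2, mm9 and HT-seq, whereas the submitters' processing notes name HISAT2 2.0.4, Cufflinks 2.1.1, Cuffdiff and GRCm38, and the listed ends of Il7r and Il2rg coincide with their RefSeq starts on GRCm38. How the counting treated strand, overlapping genes and reads that map to several places is not given in the sources used here, so values of overlapping genes and paralogs are uncertain. The deposited FPKM scale with the count, the library total and a length per gene, and this implied length was computed from them.

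The fold was that of CPM, computed from the counts, for genes with at least 10 reads in both libraries together. With 1 library per condition no spread can be estimated, so edgeR and DESeq2 gave only scaling factors and no test. Counting error was given by the read test (threshold 0.05), by Clopper-Pearson intervals for folds, by exact Poisson intervals for levels and by exact conditional odds ratios for ratios of chains. Reads are not independent molecules. Trends were least-squares polynomials of degree 3 over genes with at least 50 reads, on the implied gene length or on length and GC content of the longest GENCODE M1 transcript, known for 89.6% of the genes tested. Alternatives were trimmed mean of M values, median of ratios, no filter, at least 50 reads, log2(FPKM + 1), log2(FPKM + 0.1), a fold of 2, both trends removed, and overlapping genes left out.

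All 10 chains are named. From the lists of related genes, those past the read test and 1.5-fold, the 4 highest in FPKM and Il7, Tslp, Gata3, Jak1, Jak3, Stat5a, Stat5b and Stat6 are named, and from marker lists the 2 highest and those at 0 reads. A gene that this rule would name is not reported here. No columns of the authors' own comparisons were used. The genes of the sort (Itgam, Ly6c2, Ly6g) and of CD3 were named after their values were seen. So were Rora, Ms4a2, Mcpt8, Cma1, Mcpt4, Tpsab1 and Tpsb2. The members and lists were chosen with earlier results of these data known. The read test and the removal of the gene length trend were tested on simulated data. These held counting error only, so they cannot show how the test fares under variation between libraries. The transcript trend was not simulated. Python 3.11.15, numpy 2.4.6, pandas 2.3.3, scipy 1.17.1, matplotlib 3.10.9, R 4.3.3, edgeR 4.0.16 and DESeq2 1.42.0 were used. Sequences are from RefSeq, GRCm38.p6.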

Additional observations from a re-analysis of the deposited data

How the results depend on the processing

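The number of chains higher in CHBP+ M-MDSC was 4, and between 3 and 5 under the alternatives run, but the chains counted changed with the trends removed. Il7r was higher under all 10 alternatives, with log2 folds from 0.17 to 0.38, but most of them could not change its direction. Filters, the fold threshold and leaving out overlapping genes kept its log2 fold at 0.27, and the FPKM settings kept the main p value. The scalings gave 0.28 and 0.29, and removal of the gene length and transcript trends gave 0.38 and 0.17. None of the alternatives brought Il7r to 1.5-fold. The number of lower chains went from 0 to 1 with the gene length trend removed and to 1 with the transcript length and GC trend removed, in both cases Il4ra. The sign of Il2rg turned to 0.064 with the first and 0.16 with the second trend removed, and with the second also that of Il15ra, to 0.029, and of Il21r, to 0.044. The 1 chain at least 1.5-fold higher was Il9r, and this number was 0 with FPKM and a pseudocount of 1, with a fold threshold of 2 and with the gene length trend removed, while with the second trend removed it was Crlf2. Leaving out overlapping genes removed Il2ra, so that 3 chains were higher.

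Over all genes, the numbers past the read test, 3097 higher and 3145 lower, went to 1586 and 1779 with the transcript length and GC trend removed. Those also past 1.5-fold, 907 and 607, went to 363 and 288 with FPKM and a pseudocount of 1, to 359 and 174 at a fold threshold of 2, and to 401 and 271 with the transcript length and GC trend removed. In the 5 lists of related genes together, 32 higher and 20 lower genes became 20 and 12 with that trend removed. The cause of these shifts was not tested. Other counts stayed within 1.5 times. No paired analysis was possible because each condition has a single library, which also leaves no replicate to omit. Among the chains, Il9r and Il2rb had the fewest reads and the widest intervals.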

Other observations

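Marker genes of further cell types are given as values, and the part of these cells in the receptor chains was not tested. Over all genes tested, 21.9% were higher and 22.2% lower by the read test. Of 9 conventional dendritic cell genes, 4 of the 8 tested were higher and 1 lower in CHBP+ M-MDSC, with Itgax at 107 and 142 FPKM (1.33-fold higher), H2-Ab1 at 104 and 81.4 FPKM (a fold of 0.782) and Xcr1 at 0 reads in both. B cell genes summed to 126 and 101 CPM, with 3 of 7 tested lower, led by Cd79a (444 and 248 reads, a fold of 0.566) and Cd79b (479 and 311 reads, a fold of 0.657). Eosinophil genes summed to 172 and 131 CPM, with 3 of 8 lower, led by Prg2 (107 and 77.8 FPKM) and Ear2 (16.9 and 14.9 FPKM). Neutrophil genes were led by Mmp8 (1290 and 1546 FPKM) and S100a9 (1269 and 937 FPKM), with 1 of 10 higher and 5 lower. Monocyte genes were led by Lyz2 (9756 and 7830 FPKM) and Cd68 (284 and 286 FPKM), with 5 of 11 entries higher and 3 lower.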
